A study of Caenorhabditis elegans with 6 samples.

Results

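The 10 genes described here make, mature and release neuropeptides in Caenorhabditis elegans: egl-3, kpc-1, aex-5, sbt-1, egl-21, pghm-1, pamn-1, ida-1, ric-19 and unc-31. They were chosen by role, and all 10 were matched by WormBase identifier among the 46911 genes counted. All 10 also passed the expression filter, which kept 14506 genes. The series compared the transcriptome of whole animals at the L4 stage (the last larval stage) in 2 groups of 3 libraries. The mutant group is strain VC295, which carries unc-30(ok613) on chromosome IV, and the other group is the wild-type strain N2. The genotype field reads unc-30(ok613) in the N2 samples too, so the groups rest on the sample titles and strains. The product of unc-30 is a homeodomain protein that gives the D-type GABAergic motor neurons their identity. No treatment differed between the groups: about 40 gravid adults per 10 cm plate laid eggs for 3 hours on E. coli OP50, and the offspring grew at 20 °C. The mutant is 1 strain with 1 allele, and any other differences that VC295 carries relative to N2 cannot be told apart from the effect of unc-30. The RNA came from whole animals, so fewer cells of a type and less RNA per cell cannot be told apart.

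Neuropeptides are made as long precursors that enter the secretory pathway and are packed into dense core vesicles. Proprotein convertases, a family of subtilisin-like proteases, cut the precursors after pairs of basic residues, and a carboxypeptidase then removes those residues from the new ends. Many peptides are finally amidated at their C terminus, which takes a hydroxylating monooxygenase step and a lyase step. The vesicles release their content by calcium-triggered fusion away from the synaptic active zone. In C. elegans, loss of the convertase EGL-3, the carboxypeptidase EGL-21 or the release factor UNC-31 disturbs egg laying, defecation and locomotion.

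The mutant libraries held 20188810 to 24498576 counts in total, and the wild-type libraries 17318736 to 26377332. Signs of library make-up moved with the genotype: mitochondrial genes other than rRNA took 1.72% to 2.43% of counts per mutant library against 0.862% to 1.28% per wild-type library, and 17088 to 17525 genes had a count against 18373 to 19477, both without overlap. Ribosomal RNA took 7.65% to 12.7% of counts per mutant library and 0.394% to 8.20% per wild-type library, with overlap. The part of these properties in the members' values was not tested. Levels are CPM, counts per 1000000 of a library total that was adjusted with its TMM factor (trimmed mean of M-values), and 3 counts, the floor of detection used here, correspond to 0.175 to 0.227 CPM in the mutant and 0.0765 to 0.123 CPM in wild type. Over all tested genes, 17.1% were higher and 20.9% lower in the mutant at an adjusted p under 0.05 (quasi-likelihood F-test of edgeR, Benjamini-Hochberg adjustment over all tested genes, which applies to every adjusted p of a gene below). TMM factors differed by genotype (0.654 to 0.760 in the mutant, 1.38 to 1.49 in wild type), and scaling by total counts alone moved the median of the log2 fold changes of all genes from -0.10 to -1.11, so each direction given is relative to the TMM reference. On the first principal component, which held 73.2% of the variance, mutant replicate 1 and wild type replicate 2 lay nearest the middle. The unc-30 gene had 20, 24 and 17 reads in the 3 mutant libraries, against 23, 26 and 17 reads in the 3 wild-type libraries (log2 fold change 0.88 ± 0.42, SE; edgeR adjusted p = 0.128). The counting spans the whole gene and the bases that ok613 removes were not used here, so these reads are no check of the labels.

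Of the 10 members, 5 rose in the mutant, 0 fell and 5 did not pass the edgeR test. At an unadjusted p under 0.05 and with DESeq2 the numbers were also 5 and 0. DESeq2 called 3011 of all genes higher and 3098 lower, and the share of all genes at the unadjusted threshold was not computed. The 5 that rose were egl-3, sbt-1, egl-21, pghm-1 and ida-1, by 3.08-fold to 5.26-fold. They cover precursor cleavage, the convertase's chaperone, trimming, the first amidation step and a vesicle membrane protein. The 5 that did not pass were the convertase genes kpc-1 and aex-5, the bifunctional amidating enzyme gene pamn-1, and ric-19 and unc-31, which act in vesicle maturation and release. The members' median log2 fold change was 1.04, and it was -0.10 over all tested genes. The 5 rises also held for counts without any scaling: all 3 mutant libraries had more reads of each than any wild-type library, a pattern found in 4.21% of tested genes. On the TMM scale the same 5 had no overlap, with every mutant library higher, as did 24.4% of tested genes. Of the other members, kpc-1, ric-19 and unc-31 had fewer raw reads in every mutant library than in any wild-type library, as did 56.8% of tested genes. With scaling by total counts the same 5 members were called higher, where 3.43% of tested genes were, and the members' median was 0.01. Without the libraries nearest the middle of the first component, mutant replicate 1 and wild type replicate 2, 7 members were called higher, pamn-1 (edgeR adjusted p = 0.0416) and kpc-1 (edgeR adjusted p = 0.0437) among them, as were 23.7% of tested genes.

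**Figure D1:**
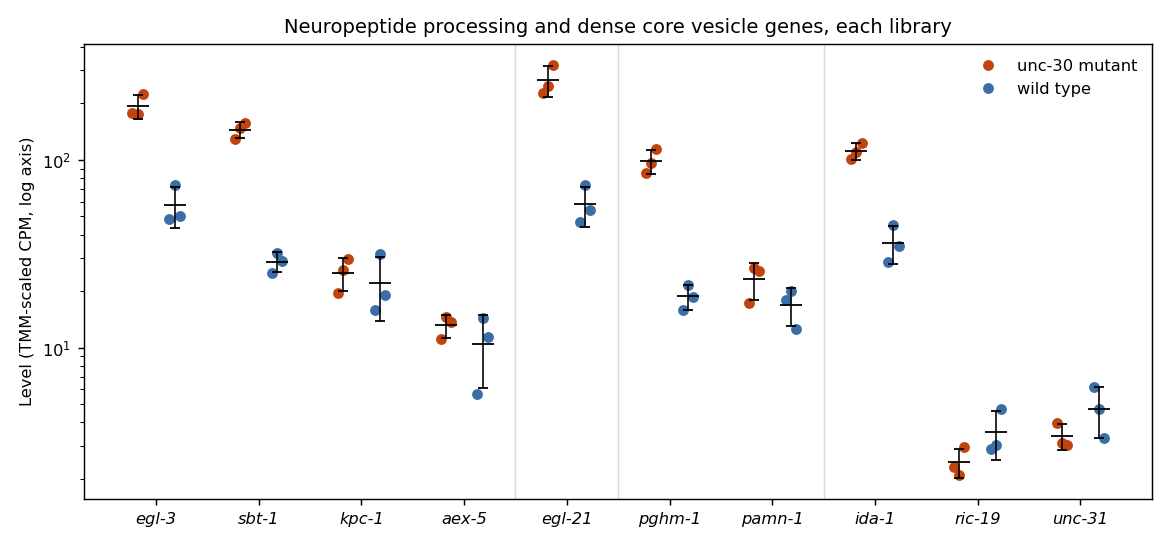
TMM-scaled CPM (log axis) of each member in the 3 unc-30 mutant libraries and the 3 wild-type libraries, with black bars for the mean ± SD, and grey lines between convertases with their chaperone, carboxypeptidase, amidating enzymes and vesicle genes. The groups do not overlap for egl-3, sbt-1, egl-21, pghm-1 and ida-1 and overlap for the other 5.

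Among the convertases and their chaperone, egl-3 and sbt-1 rose together whereas kpc-1 and aex-5 did not pass. egl-3 (WBGene00001172; chromosome V, 10169177 to 10173753, minus strand, WBcel235) encodes the ortholog of vertebrate proprotein convertase 2, the main neuropeptide-cleaving protease of worm neurons. Its level was 177, 177 and 225 CPM in mutant replicates 1 to 3, against 48.4, 73.6 and 50.6 CPM in wild type. Every mutant library lay above the highest wild-type library, which was replicate 2. The fold change was 3.36 (log2 1.75 ± 0.24, SE; edgeR adjusted p = 0.00274). sbt-1 (WBGene00011392; chromosome V, 20827715 to 20828881, minus strand) encodes the 7B2-like chaperone that EGL-3 needs to become active. It had 130, 148 and 157 CPM in mutant replicates 1 to 3, against 25.1, 32.04 and 28.9 CPM in wild type, and the groups lay far apart in relation to their spread. The fold change was 5.05 (log2 2.34 ± 0.21, SE; edgeR adjusted p = 0.00162). Of the exonic bases of sbt-1, 3.67% are shared with grl-14 on the opposite strand, and that gene had 219 counts over the 6 libraries, against 9309 for sbt-1.

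kpc-1 (WBGene00002232; chromosome I, 11675941 to 11680975, plus strand) encodes a furin-like convertase known for its part in dendrite branching. It had 19.6, 25.9 and 29.5 CPM in mutant replicates 1 to 3, against 15.8, 31.5 and 19.05 CPM in wild type, so the mutant values lay within the wild-type range. Its log2 fold change was 0.18 ± 0.32 (SE; edgeR adjusted p = 0.678). aex-5 (WBGene00000088; chromosome I, 14850052 to 14855827, minus strand) encodes a convertase required for the muscle contractions that end each defecation cycle. It had 11.1, 14.6 and 13.8 CPM in mutant replicates 1 to 3, against 5.68, 14.3 and 11.5 CPM in wild type, where replicate 1 was the low library. Its log2 fold change was 0.33 ± 0.36 (SE; edgeR adjusted p = 0.491). Both values, scaled by total counts, turned negative, to -0.84 for kpc-1 (edgeR adjusted p = 0.0432) and -0.68 for aex-5 (0.117), so no direction can be given for either gene. Of the exonic bases of kpc-1, 2.57% are shared with scrm-4 on the opposite strand, which had 552 counts over the 6 libraries, against 3132 for kpc-1. Of the exonic bases of aex-5, 5.06% are shared with the far more abundant opposite-strand gene maph-1.1 (20176 counts over the 6 libraries, against 1540 for aex-5). Whether the counting used strand was not stated, so reads of the pair cannot be told apart there.

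The carboxypeptidase gene egl-21 was the most abundant member in the mutant by CPM. egl-21 (WBGene00001189; chromosome IV, 10478442 to 10481844, minus strand) encodes the carboxypeptidase E ortholog that trims the basic residues left by the convertase. Its level was 227, 248 and 322 CPM in mutant replicates 1 to 3, against 46.5, 73.5 and 54.04 CPM in wild type. The 2 genotypes did not overlap, and mutant replicate 3 and wild type replicate 2 were the high libraries of their groups, as for egl-3. The fold change was 4.58 (log2 2.19 ± 0.25, SE; edgeR adjusted p = 0.00204).

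Of the amidating enzymes, pghm-1 rose more than any other member, and pamn-1 did not pass. pghm-1 (WBGene00022144; chromosome I, 1808092 to 1811835, plus strand) encodes a peptidylglycine alpha-hydroxylating monooxygenase, which carries out the first amidation step only. It had 84.8, 96.7 and 114 CPM in mutant replicates 1 to 3, against 15.9, 21.7 and 18.7 CPM in wild type. The fold change was 5.26 (log2 2.39 ± 0.23, SE; edgeR adjusted p = 0.00162). pamn-1 (WBGene00020556; chromosome I, 5702156 to 5705553, plus strand) encodes a bifunctional enzyme with both the monooxygenase and the lyase domain, as in vertebrates. It had 17.2, 26.5 and 25.7 CPM in mutant replicates 1 to 3, against 17.9, 20.1 and 12.6 CPM in wild type, and mutant replicate 1 lay within the wild-type range. Its log2 fold change was 0.46 ± 0.28 (SE; edgeR adjusted p = 0.230), and it became -0.58 with scaling by total counts. pgal-1, no member but the gene of the separate lyase that completes the reaction started by PGHM-1, rose 3.36-fold, to 95.4 ± 12.3 CPM in the mutant against 28.4 ± 3.25 CPM in wild type (SD, n = 3 each; edgeR adjusted p = 0.00232). Both genes of the 2-enzyme route to amidated peptides were therefore higher in the mutant, and each was also called when scaled by total counts (edgeR adjusted p = 0.00167 for pghm-1 and 0.0172 for pgal-1).

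The 3 vesicle genes differed among themselves. ida-1 (WBGene00002048; chromosome III, 5755539 to 5765816, plus strand) encodes a receptor tyrosine phosphatase-like protein of the dense core vesicle membrane, related to the human diabetes autoantigens IA-2 and phogrin. Its level was 101, 110 and 123 CPM in mutant replicates 1 to 3, against 28.6, 45.3 and 34.7 CPM in wild type, with no overlap. The fold change was 3.08 (log2 1.62 ± 0.23, SE; edgeR adjusted p = 0.00300). Scaled by total counts, ida-1 lay at the edge of the threshold (log2 fold change 0.60, edgeR adjusted p = 0.04996). unc-31 (WBGene00006767; chromosome IV, 12773867 to 12788354, plus strand) encodes the CAPS protein that primes dense core vesicles for fusion. It had 3.99, 3.10 and 3.03 CPM in mutant replicates 1 to 3, against 6.14, 4.73 and 3.29 CPM in wild type. Mutant replicate 1 lay above wild type replicate 3, so the groups overlapped, and the log2 fold change was -0.49 ± 0.34 (SE; edgeR adjusted p = 0.277).

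ric-19 (WBGene00004368; chromosome I, 3778089 to 3781690, minus strand) encodes the ICA69 ortholog, an effector of the small GTPase RAB-2 in vesicle maturation. It had 2.32, 2.10 and 2.95 CPM in mutant replicates 1 to 3, against 2.88, 3.04 and 4.73 CPM in wild type. Only mutant replicate 3 reached into the wild-type range, and the log2 fold change was -0.53 ± 0.34 (SE; edgeR adjusted p = 0.245). These 2 genes rest on the fewest reads, with 40 to 62 counts per mutant library against 105 to 241 per wild-type library for unc-31, and 36 to 39 against 74 to 151 for ric-19. Scaled by total counts, unc-31 (log2 fold change -1.50, edgeR adjusted p = 0.00787) and ric-19 (-1.55, adjusted p = 0.00447) were both called lower, where 56.4% of all tested genes were called lower.

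**Figure D2:**
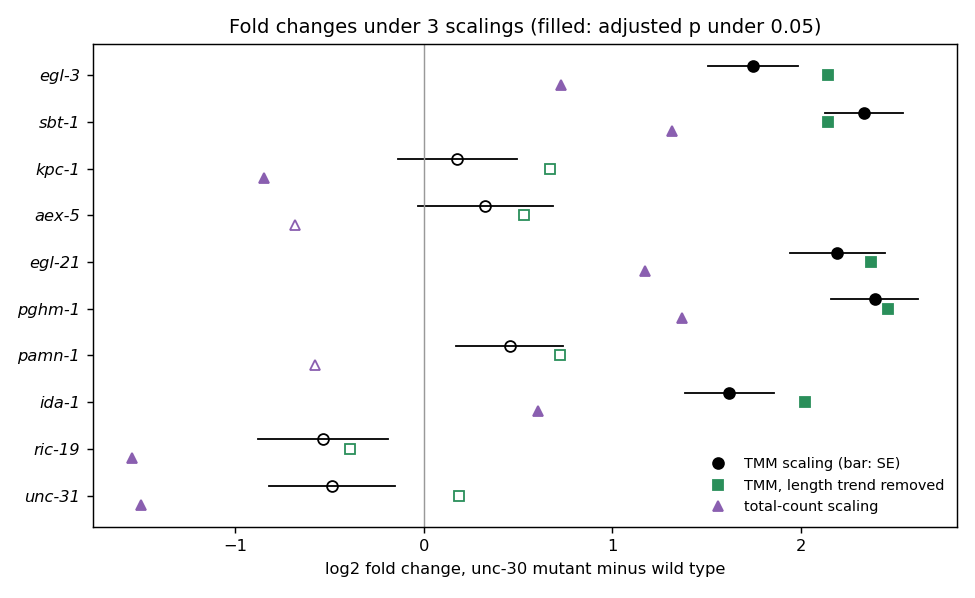
log2 fold changes (mutant minus wild type) of the members with TMM scaling, with the trend over gene length removed, and with scaling by total counts, where filled symbols have an edgeR adjusted p under 0.05 and bars are SE of the TMM fit. The 5 called members stay right of 0 in all 3, whereas kpc-1, aex-5 and pamn-1 change sign with total counts and unc-31 with the length trend removed.

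Fold changes in these libraries went with a gene's level and length, and the members' own level and length therefore stand beside their values. Over the 14506 tested genes the log2 fold change rose with the mean CPM (Spearman's rho 0.27 across genes, which are not independent replicates). Of the 1198 tested genes with a mean over 50 and up to 100 CPM, 29.5% were called higher and their median log2 fold change was 0.29, and of the 792 genes over 100 and up to 250 CPM 48.0% were called higher with a median of 0.67. The 5 members that rose lie in these bands, at means of 58.6 CPM for pghm-1 to 162 CPM for egl-21. Within its own band a log2 fold change at least as high was found for 0.919% of the other genes in the case of pghm-1, 1.09% for sbt-1, 4.85% for ida-1, 2.65% for egl-21 and 7.21% for egl-3. The 5 that did not pass lie lower, at means of 3.00 to 23.6 CPM. These means cover both genotypes and so include the rise itself: in wild type alone pghm-1 (18.8 ± 2.88 CPM) lay below kpc-1 (22.1 ± 8.32 CPM) and close to pamn-1 (16.9 ± 3.85 CPM; SD, n = 3 for each level). In the band over 10 and up to 25 CPM, which holds kpc-1, aex-5 and pamn-1, 12.7% of genes were called higher and the median was -0.21. In the band over 1 and up to 5 CPM, which holds unc-31 and ric-19, the median was -0.37, and 53.3% and 54.8% of the other genes had log2 fold changes at least as high as theirs.

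The log2 fold change fell with exonic length across genes (Spearman's rho -0.22 over 14496 genes with a length). The exonic lengths of the members ran from 791 nt for sbt-1 to 5237 nt for unc-31, and the 376 tested genes over 5000 nt had a median log2 fold change of -0.70. With the length trend of each library removed, the 5 members stayed called at log2 fold changes of 2.02 (ida-1) to 2.46 (pghm-1), where 19.4% of all genes were called higher. egl-3 and ida-1, with 2565 and 2591 nt, moved to 2.14 and 2.02, and the value of unc-31 turned to 0.19 (edgeR adjusted p = 0.628). What part level and length play in the members' values was not tested beyond these alternatives.

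**Figure D3:**
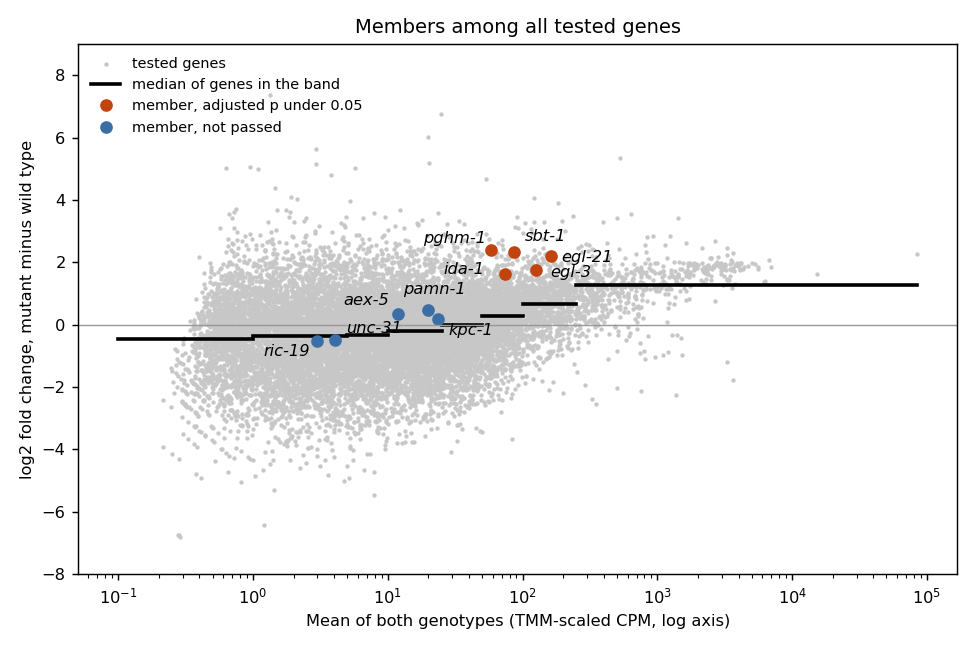
log2 fold change (mutant minus wild type) against the mean TMM-scaled CPM of both genotypes (log axis) for all tested genes in grey and the members in colour, with black lines for the median of all genes in each band of level. The 5 members called higher lie above the median of their bands, and unc-31 and ric-19 lie close to that of theirs.

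Levels per kilobase of exon let the members be set against each other. In the mutant the order was sbt-1 (183 ± 17.3 CPM per kb), egl-21 (157 ± 29.4), pghm-1 (84.4 ± 12.6), egl-3 (75.3 ± 10.9), ida-1 (43.0 ± 4.29), pamn-1 (11.6 ± 2.58), kpc-1 (8.36 ± 1.68), aex-5 (7.31 ± 1.02), ric-19 (1.66 ± 0.298) and unc-31 (0.644 ± 0.102; SD, n = 3 for each level). In wild type it was sbt-1 (36.3 ± 4.37 CPM per kb), egl-21 (34.2 ± 8.23), egl-3 (22.4 ± 5.45), pghm-1 (16.1 ± 2.47), ida-1 (13.97 ± 3.26), pamn-1 (8.46 ± 1.93), kpc-1 (7.39 ± 2.78), aex-5 (5.83 ± 2.45), ric-19 (2.40 ± 0.691) and unc-31 (0.901 ± 0.272; SD, n = 3 for each level). The order was the same in both genotypes except that pghm-1 stood above egl-3 in the mutant and below it in wild type. In the mutant the libraries of neighbours overlapped between sbt-1 and egl-21, between pghm-1 and egl-3, and among pamn-1, kpc-1 and aex-5. In wild type they overlapped for these pairs of neighbours other than egl-3 and pghm-1, and also between egl-21 and egl-3, between pghm-1 and ida-1 and between aex-5 and ric-19. The 5 members that rose are thus the 5 most abundant per kilobase in both genotypes, and in both genotypes the gap between the last of them and the next member, ida-1 and pamn-1, was free of overlap.

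Ratios of 2 members within a library do not depend on how libraries are scaled, and for most pairs the genotypes did not overlap. The ratios do keep the trend of fold changes over gene length, and unc-31 is the longest member (5237 nt). With that trend removed the log2 fold changes were 0.19 for unc-31, 0.73 for pamn-1 and -0.39 for ric-19. With TMM alone they were -0.49, 0.46 and -0.53. There were 14 pairs, each compared with an exact permutation test over the 6 libraries (two-sided). With 3 libraries against 3 the exact permutation test cannot go below p = 0.1, and after adjustment over the 14 pairs the smallest value is 0.127. No pair can therefore pass. Most pairs share unc-31 or hold a member called in these same libraries, and the share of other gene pairs without overlap was not computed. The log2 ratio of egl-3 to unc-31 was 5.45, 5.81 and 6.18 in mutant replicates 1 to 3, against 2.97, 3.95 and 3.93 in wild type, a difference of 2.20. The differences for egl-21, sbt-1, pghm-1 and ida-1 over unc-31 were 2.64, 2.77, 2.83 and 2.08, and for each of these 5 pairs no mutant library overlapped a wild-type library (exact p = 0.1). For pamn-1 over unc-31 the difference was smaller at 0.89, also without overlap (exact p = 0.1). kpc-1 and aex-5 over unc-31 differed by 0.66 and 0.85 with overlapping groups (exact p = 0.3 for each), and ric-19 over unc-31 by -0.05 (exact p = 0.9).

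Within the convertases, the log2 ratio of egl-3 to kpc-1 was 3.17, 2.77 and 2.93 in mutant replicates 1 to 3, against 1.62, 1.22 and 1.41 in wild type, so that egl-3 gained 2.91-fold on kpc-1 (exact p = 0.1). The ratio of egl-3 to aex-5 was 2.54-fold higher in the mutant (exact p = 0.1). Set against its own chaperone, egl-3 had the lower count ratio in the mutant: the log2 ratio of egl-3 to sbt-1 was 0.41 ± 0.14 in the mutant and 0.98 ± 0.20 in wild type (SD, n = 3 each), with no overlap (exact permutation p = 0.1). The 2 genes differ in exonic length, with 2565 nt for egl-3 and 791 nt for sbt-1. With the length trend removed their log2 fold changes were nearly equal, at 2.14 for egl-3 and 2.15 for sbt-1. The log2 ratio of egl-21 to egl-3 was 0.45 ± 0.08 in the mutant and 0.01 ± 0.08 in wild type (SD, n = 3 each; exact permutation p = 0.1), so reads of the 2 enzymes stood close to 1 to 1 in wild type and in favour of egl-21 in the mutant. With the length trend removed the log2 fold changes lay closer together, at 2.37 for egl-21 (1696 nt) and 2.14 for egl-3. For the amidating enzymes, the log2 ratio of pghm-1 to pamn-1 was 2.29, 1.87 and 2.14 in mutant replicates 1 to 3, against -0.17, 0.11 and 0.56 in wild type, a shift of 3.82-fold (exact p = 0.1). Counts grow with gene length, so each ratio is compared between libraries and does not give the relative number of molecules of 2 genes.

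**Figure D4:**
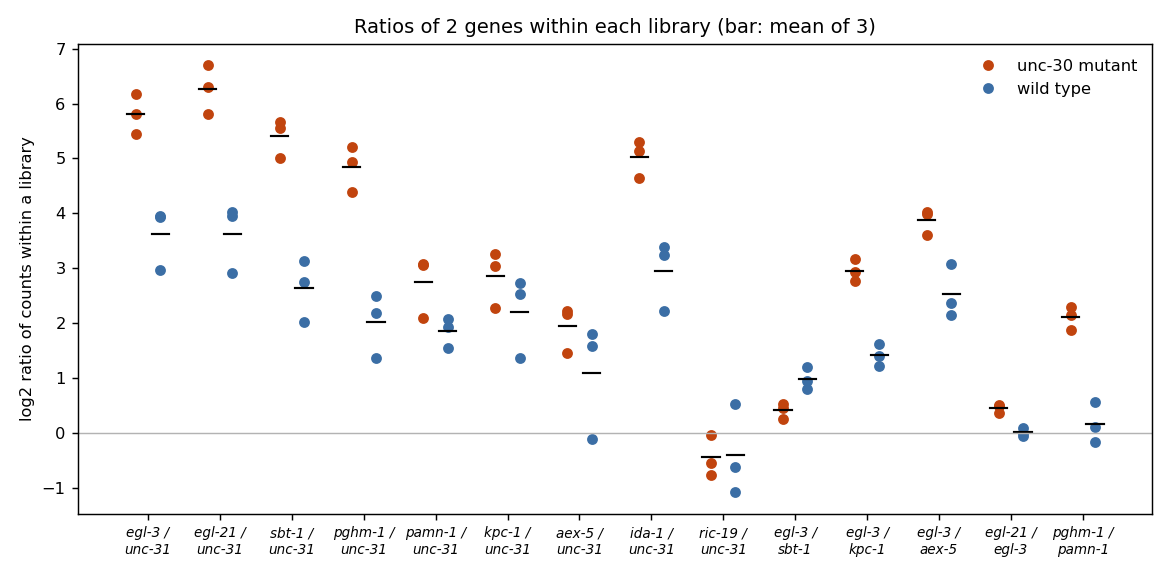
log2 ratio of the counts of 2 members within each library, with 3 unc-30 mutant libraries and 3 wild-type libraries per pair and black bars for their means. The groups are apart for 11 of the 14 pairs and overlap for kpc-1, aex-5 and ric-19 over unc-31. No pair passed after adjustment, and the share of other gene pairs without overlap was not computed.

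Likeness of pattern was measured as Pearson's r of log2 CPM over the 6 libraries, which includes the difference between genotypes and is therefore high among genes that share one. Of all tested genes, 7.30% to 8.42% had r over 0.95 with each of the 5 members that rose, and 0.248% to 0.683% had such an r with each of the other 5. The 3 genes most like sbt-1 were rpl-20, phb-1 and tomm-20 (r = 0.999 each over 6 libraries), and those most like egl-3 were gei-15, egl-21 and F53F4.17 (r = 0.997 to 0.998). The genes most like unc-31 were B0432.7, ZC13.1 and C25A1.20 (r = 0.985 to 0.986), and those most like ric-19 were linc-41, slc-28.1 and ZC155.2 (r = 0.987 to 0.996).

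Most tested genes of 3 peptide precursor families, listed by family name, were called higher in the mutant as well. Over all tested genes 17.1% were higher, or 3.43% with scaling by total counts. Which of the families' products these enzymes process was not tested. Among 65 tested neuropeptide-like protein genes (nlp) there were 47 that rose, 1 that fell and 17 that did not pass. Scaling by total counts moved their median log2 fold change to 0.86, with 30 rises and 5 falls, against 1.88 with TMM. nlp-12, which encodes cholecystokinin-like peptides, rose to 47.0 ± 1.06 CPM in the mutant against 6.39 ± 1.35 CPM in wild type (SD, n = 3 each), and nlp-80 rose 6.31-fold (edgeR adjusted p = 0.00162 and 0.00167). nlp-25 was the 1 gene that fell (log2 fold change -1.76), and it no longer passed when mutant replicate 2, mutant replicate 3 or wild type replicate 3 was left out (edgeR adjusted p = 0.0598 to 0.0759). Of the FMRFamide-like precursor genes 29 of 30 rose, and 24 did with scaling by total counts. The largest rise was that of flp-26, to 16.8 ± 3.64 CPM in the mutant against 2.69 ± 0.461 CPM in wild type (SD, n = 3 each; edgeR adjusted p = 0.00204). Of the insulin-like genes 11 of 21 rose, a number that was 7 without mutant replicate 2 or without mutant replicate 3 and 4 with scaling by total counts. With the length trend removed 45 nlp, 28 FMRFamide-like and 8 insulin-like genes rose, where 19.4% of all genes were called higher. ins-27 had 78.8 ± 14.7 CPM in the mutant against 12.8 ± 3.48 CPM in wild type (SD, n = 3 each; edgeR adjusted p = 0.00186). Summed reads of FMRFamide-like precursors per read of egl-3 were 4.11, 5.18 and 4.45 in mutant replicates 1 to 3, against 4.23, 3.16 and 4.90 in wild type, so the groups overlapped. Per read of pghm-1 they were 8.59, 9.46 and 8.79 in mutant replicates 1 to 3, against 12.9, 10.7 and 13.3 in wild type. Summed nlp reads per read of egl-3 were 7.10, 8.94 and 7.30 in the mutant replicates, against 10.04, 9.12 and 15.9 in wild type, and per read of pghm-1 they were 14.8, 16.3 and 14.4 in the mutant replicates, against 30.6, 30.98 and 42.95 in wild type. Insulin-like reads per read of pghm-1 numbered 1.63 to 1.82 per mutant library against 2.46 to 2.89 per wild-type library, and per read of egl-3 the groups overlapped, with 0.781 to 0.997 per mutant library against 0.725 to 1.07 per wild-type library. For all 3 families the ratio to pghm-1 was lower in every mutant library than in any wild-type library, and so was the ratio of nlp to egl-3. Per read of egl-21 the same held for nlp (5.11 to 6.38 per mutant library against 9.13 to 14.8 per wild-type library). It also held for insulin-like reads (0.600 to 0.711 against 0.725 to 0.999), while FMRFamide-like reads overlapped (3.11 to 3.69 against 3.17 to 4.58). Summed reads weigh the most abundant precursors: the median log2 fold change of the nlp genes was 1.88, against 1.75 for egl-3. These ratios also keep the trend over gene length, with median exonic lengths of 478 to 644.5 nt in the 3 families and 2565 nt for egl-3. The share of other genes with ratios free of overlap was not computed.

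Genes of vesicle biogenesis and transport did not rise with the enzymes. Of 13 tested genes of this kind, 0 rose, 5 fell and 8 did not pass the edgeR test, with a median log2 fold change of -0.73. Over all tested genes 17.1% were higher and 20.9% lower, at a median of -0.10. At an unadjusted p under 0.05 there were 0 rises and 9 falls. The share of all tested genes at that unadjusted threshold was not computed, so the 9 cannot be set against the 20.9%. With DESeq2 there were 0 rises and 5 falls, where 3011 of all genes were higher and 3098 lower. The largest falls were those of cccp-1 and rund-1, which encode partners of RAB-2 in dense core vesicle maturation. cccp-1 had 18, 22 and 22 counts in mutant replicates 1 to 3, against 356, 167 and 422 in wild type (1.37 ± 0.264 CPM and 9.72 ± 3.23 CPM, SD, n = 3 each; edgeR adjusted p = 0.00249). rund-1 had 24, 12 and 26 counts in mutant replicates 1 to 3, against 199, 103 and 239 in wild type (edgeR adjusted p = 0.00981). The other falls were those of vps-53 and vps-54, tethering complex subunits, and of unc-104, the kinesin that carries vesicles along axons, with log2 fold changes of -1.26, -1.47 and -1.74. The number of falls was 3 without mutant replicate 2 or without mutant replicate 3. It was 12 with scaling by total counts, where 56.4% of all tested genes were lower. With the length trend removed 5 fell, at a median of -0.45. In that fit, and without wild type replicate 2, 1 gene, vps-50, rose. The gene of RAB-2 itself, unc-108, stood at 0.19 on the log2 scale (edgeR adjusted p = 0.475).

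Genes of vesicle release and its regulation were called in both directions in numbers close to the background. The 20 tested genes held 4 rises, 5 falls and 11 that did not pass, where 17.1% of all tested genes were higher and 20.9% lower, at a median log2 fold change of -0.24 that turned to 0.26 with the length trend removed, where 7 rose and 2 fell. The largest rises were those of gsa-1, the stimulatory G protein alpha subunit gene, at 2.40-fold (edgeR adjusted p = 0.03803), and of cab-1, which encodes a binding partner of AEX-3, at 2.32-fold (edgeR adjusted p = 0.00355). The other rises were those of snb-1, the synaptobrevin gene, and kin-2, the regulatory subunit gene of protein kinase A, with log2 fold changes of 1.10 and 1.01. With scaling by total counts edgeR called 0 genes of the list higher, 0 also at an unadjusted p under 0.05, and 15 lower, where 56.4% of all tested genes were lower. gsa-1 did not pass when any 1 of mutant replicates 2 and 3 and wild type replicates 1 and 3 was left out (edgeR adjusted p = 0.104 to 0.125), and 2 genes rose without mutant replicate 3. The largest falls were those of aex-1 and aex-4, which encode a Munc13-like protein and a SNARE of the intestine and belong to the same defecation pathway as aex-5, at -2.17 for aex-1 (edgeR adjusted p = 0.00778) and -1.86 for aex-4 (edgeR adjusted p = 0.0112) on the log2 scale. unc-13, tom-1 and pkc-1, which encode a priming factor, tomosyn and a protein kinase C, fell by 1.42, 1.15 and 0.92 on that scale. aex-4 lost its call without mutant replicate 2 (edgeR adjusted p = 0.0575), and the number of falls was 2 without mutant replicate 2 or without mutant replicate 3. In the list of other processing enzymes, pgal-1 rose and bli-4, cpd-1 and cpd-2 did not pass, at log2 fold changes of 0.25, -0.21 and -0.08.

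Neprilysin-family peptidases, relatives of the mammalian enzyme that breaks down extracellular peptides, had more falls than rises, as had all tested genes (20.9% lower and 17.1% higher). The 21 tested nep genes held 1 rise, 7 falls and 13 that did not pass, at a median log2 fold change of -0.60. Scaled by total counts, edgeR called 0 of them higher, 0 also at an unadjusted p under 0.05, and 16 lower, where 56.4% of all tested genes were lower. nep-3 had 3, 3 and 1 counts in mutant replicates 1 to 3, against 64, 31 and 66 in wild type, and nep-23 had 27, 30 and 9 counts, against 263, 318 and 576 (edgeR adjusted p = 0.00309 and 0.00343). The rise was that of nep-17, the most abundant of these genes, to 682 ± 103 CPM in the mutant against 347 ± 92.5 CPM in wild type (SD, n = 3 each; edgeR adjusted p = 0.0148). Its value of 0.98 on the log2 scale became -0.043 with scaling by total counts, and it did not pass when mutant replicate 3 or wild type replicate 3 was left out (edgeR adjusted p = 0.0741 and 0.0628).

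**Figure D5:**
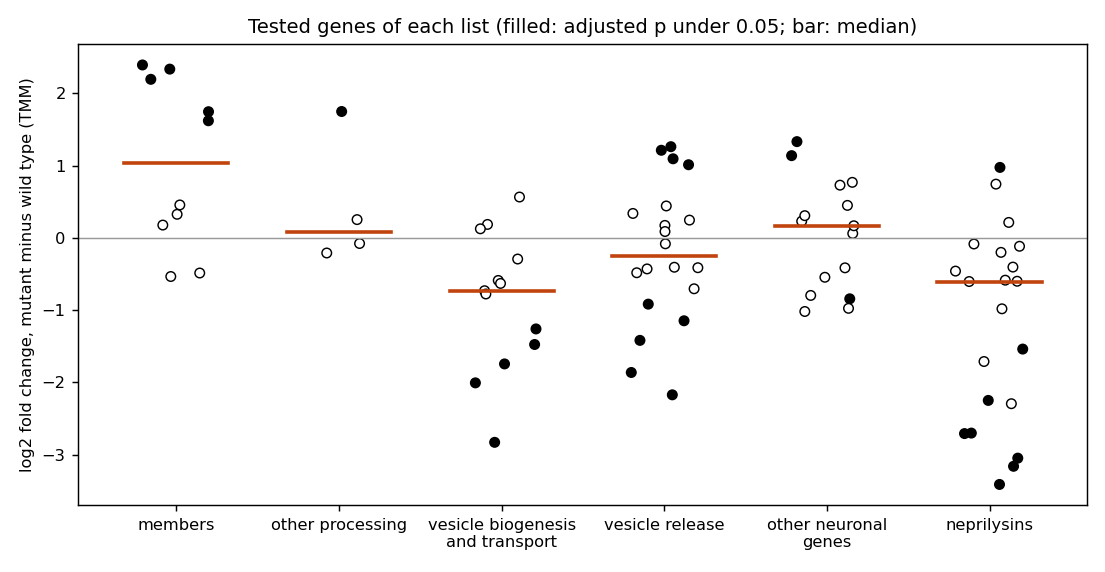
log2 fold change (mutant minus wild type, TMM scaling) of every tested gene of the members and of 5 related lists, with filled points for an edgeR adjusted p under 0.05 and bars for medians. The members split into 5 filled points at 1.62 to 2.39 and 5 open points at -0.53 to 0.46, while the genes of vesicle biogenesis hold 5 falls and no rise.

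Some markers of tissues were called as well, where 17.1% of all tested genes were higher and 20.9% lower. Of 15 tested genes used across neurons, snn-1 and unc-51 rose, snt-1 fell and 12 did not pass. Their median log2 fold change was 0.17, or -0.86 when scaled by total counts, and their summed level was 480 to 529 CPM in the mutant libraries and 367 to 467 CPM in wild type. None of the 3 edgeR calls remained without mutant replicate 2 or without mutant replicate 3. With the length trend removed 6 of the 15 were called higher and 0 lower, at a median of 0.58. In that fit 19.4% of all genes were called higher. With levels scaled to these neuronal genes instead, the 5 members stayed called at log2 fold changes of 1.62 (ida-1) to 2.39 (pghm-1). Of 8 body wall muscle markers, 8 rose, with summed levels of 21106 to 30767 CPM in the mutant and 7381 to 13172 CPM in wild type. They lie in the band with a mean over 250 CPM, where 70.1% of 585 tested genes were called higher. The median log2 fold change of that band was 1.27, against 1.33 for the muscle markers. Scaled by total counts, edgeR called 0 of the 8, 1 of them higher at an unadjusted p under 0.05, at a median log2 fold change of 0.31. Of 7 intestine markers asp-1 and act-5 rose and the others did not pass, with summed levels of 6484 to 9995 CPM in the mutant and 1804 to 3444 CPM in wild type, and the median log2 fold change of 0.39 became -0.61 with scaling by total counts. Of 6 hypodermis markers dpy-7 and rol-6 rose and the others did not pass, with summed levels of 3067 to 7351 CPM in the mutant and 293 to 2178 CPM in wild type. Neither dpy-7 (edgeR adjusted p = 0.0680) nor rol-6 (0.0911) passed with scaling by total counts, and neither passed without an expression filter (0.160 and 0.152) or when any 1 of mutant replicates 2 and 3 and wild type replicates 1 and 3 was left out (0.0680 to 0.131 for dpy-7 and 0.0867 to 0.102 for rol-6). Without wild type replicate 2 the log2 fold change of dpy-7 was 4.84, against 3.28 with all libraries, and that of rol-6 was 4.01, against 2.61. Of 6 sperm markers 4 fell, spe-11 and spe-15 the most, and the others did not pass, with summed levels of 52.1 to 74.1 CPM in the mutant and 156 to 222 CPM in wild type. Of 8 germline markers syp-1 and him-3 fell, with summed levels of 1661 to 2461 CPM in the mutant and 1571 to 1882 CPM in wild type, and neither of the 2 coelomocyte markers passed. No marker was at 0 in every library of a group. The part of these differences between tissues in the members' values was not tested.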

How the data were processed

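RNA-seq of 6 whole-animal libraries was used, 3 of strain VC295 and 3 of N2, grouped by title. The labels do not say whether replicates were separate cultures, and p-values reflect only the variation among these libraries, which may be technical. The authors deposited raw counts of reads per WormBase gene. HTSeq and DESeq2 are named in the submitters' processing notes, and no aligner, build, annotation, strand setting or version was stated. Coordinates and exonic lengths come from Ensembl release 115 of WBcel235 (1-based), in which 46863 of the 46911 identifiers were found.

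Counts were tested with edgeR 4.0.16 (R 4.3.3): the default filter on expression, TMM factors, a robust quasi-likelihood fit on group alone, and Benjamini-Hochberg adjustment over all tested genes with a threshold of 0.05. Standard errors are the size of the log2 fold change divided by the square root of F. Within-library ratios used a pseudocount of 1 count. Length trends were lowess curves per library (span 0.3). Fits were tested on simulated counts in which few genes changed, as many up as down. That run had no trend over level or length, so it does not check the scaling used here. DESeq2 1.42.0, other scalings, no filter, a replicate block and leaving out libraries were alternatives. Floors cover counting error only.

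The members and lists were chosen with earlier results of these data known. Lists were compiled from general knowledge or by family name (flp, nlp, ins and nep with a number), and they were not tested as sets. Named genes are the members, their most alike genes and, from each list, some or all of the 2 largest rises and 2 largest falls past the threshold with at least 1 CPM in the higher group. Other genes of the lists (vps-53, vps-54, unc-104, unc-108, bli-4, cpd-1, cpd-2, snb-1, kin-2, unc-13, tom-1, pkc-1 and vps-50) were added after their values were seen. One listed symbol, rab-2, had no entry apart from unc-108. Same-numbered replicates correlated in their deviations from the group means at 0.462, 0.438 and -0.071, so the numbers were not taken as pairs.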

Additional observations from a re-analysis of the deposited data

How the results depend on the processing

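Under each of the alternatives run (scaling by total counts, relative log expression factors, scaling to other neuronal genes, DESeq2, no expression filter, length trend removed, replicate block, each library left out), egl-3, egl-21, sbt-1, pghm-1 and ida-1 stayed called higher. The call of ida-1 with total counts was marginal.

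With scaling by total counts 498 genes were higher and 8175 lower, 3 members were called lower (unc-31 at -1.50, kpc-1 at -0.84 and ric-19 at -1.55), pamn-1 stood at -0.58 and aex-5 at -0.68, the members' median was 0.014 and nep-17 stood at -0.043 (log2 fold changes). This scaling lowers all genes alike. With the length trend removed unc-31 turned to 0.19 and the members' median was 1.37.

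The same replicate numbers as a block raised the calls to 3230 higher and 3713 lower and kept 5 members higher. As only a number is shared, these do not stand for pairs. The replicate block with the length trend removed called 3629 of all genes higher, against 2476 in the main fit. It gave 7 members higher, with pamn-1 at 0.72 and kpc-1 at 0.69 (edgeR adjusted p = 0.0449 and 0.0229), unc-31 at 0.20 and a members' median of 1.38. Leaving out mutant replicate 1 and wild type replicate 2 together, an alternative chosen after seeing the data, also gave 7 members higher, with pamn-1 at 0.81 and kpc-1 at 0.71 (0.0416 and 0.0437) and a median of 1.37. In that fit 23.7% of tested genes were called higher.

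Leaving out single libraries gave 1359 to 2897 genes higher and 1424 to 3257 lower. The low ends came without mutant replicate 2 or 3, and the numbers were 1584 and 1882 without wild type replicate 3. kpc-1 ranged from -0.015 (without wild type replicate 1) to 0.53, and the log2 ratio of ric-19 over unc-31 from -0.40 to 0.41, turning positive without mutant replicate 1 or wild type replicate 3. The causes were not tested. Standard errors of log2 fold changes were 0.36 for aex-5, 0.34 for ric-19 and 0.34 for unc-31, against 0.21 to 0.32 for the other members.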
